A study of Mus musculus with 5 samples.

Results

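The 3 cardiac connexin loci Gja1, Gja5 and Gjc1 held 9 of the 21703 regions in the lists of Tbx3, Nkx2-5 and Gata4, 7 of them Tbx3, 1 Nkx2-5 and 1 Gata4. A region is a stretch of the genome that the authors listed for a factor after chromatin immunoprecipitation and sequencing (ChIP-seq). Members were all regions that overlapped, by at least 1 bp, a window made of the gene and about 100 kb on each side. In the mouse build mm9 these windows were 55.99 to 56.21 Mb on chromosome 10 for Gja1, 96.73 to 96.96 Mb on chromosome 3 for Gja5, and 102.56 to 102.79 Mb on chromosome 11 for Gjc1. The rule used positions of genes and no measured value, but the loci were chosen with earlier results of these lists known.

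The lists came from whole adult mouse hearts of the FVB/N background, with 1 library per factor. Tbx3 was profiled in hearts with the genotype Myh6-MCM;CAG-CAT-TBX3, in which a Cre driven by the cardiomyocyte promoter Myh6 acts on a TBX3 transgene. Nkx2-5 and Gata4 were profiled in wild-type hearts. The Tbx3 values therefore describe hearts with the transgene, and factor and genotype cannot be told apart. The series also has a Tbx3-antibody control in Myh6-MCM hearts and a p300 library from wild-type hearts, which were not analysed here. The labels give no number of pooled hearts and no age beyond adult. With no replicate there is no test between factors or loci, and every comparison below describes these lists. The lists give positions with no depth, score or read number, so a locus without a region had none past a threshold that is not given in the sources used here. No expression was measured, so heart markers could not be checked.

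Connexins are membrane proteins that assemble into gap junction channels, through which current passes from one heart cell to the next. Gja1 encodes connexin Cx43, the main channel protein of the working ventricle. Gja5 encodes Cx40 of the atria and the fast-conducting His-Purkinje system, and Gjc1 encodes Cx45, found in the slow-conducting nodes. In the mouse, Tbx3 is a T-box factor that holds down the working-muscle programme in the nodes, and Gja1 and Gja5 are among the genes it is known to repress. Nkx2-5, a homeodomain factor, is a known activator of Gja5 in the mouse heart, and Gata4 is a zinc-finger activator of many heart muscle genes. The design asks where these factors lie in the adult heart genome, and at the connexin genes this becomes which factor lies at which gene and whether places are shared.

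Start-site sequence is shown for the 2 genes with an entry in the RefSeq promoter table, of build GRCm38.p6. It serves as context for the genes and not as a place of binding. Each sequence covers 250 bases before and 50 bases after the annotated start on the plus strand, chr10:56377050-56377349 for Gja1 and chr3:97032152-97032451 for Gja5. These positions belong to another build than the mm9 regions and cannot be set against them, so whether a region lies on a start site was not determined. Capitals mark a match to 1 of 3 motifs, searched on both strands.
Gja1: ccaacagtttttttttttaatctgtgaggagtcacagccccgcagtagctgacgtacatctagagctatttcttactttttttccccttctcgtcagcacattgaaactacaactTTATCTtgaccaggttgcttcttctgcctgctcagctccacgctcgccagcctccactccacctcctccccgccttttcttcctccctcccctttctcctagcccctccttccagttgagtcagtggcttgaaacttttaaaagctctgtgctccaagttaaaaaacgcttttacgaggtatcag
Gja5: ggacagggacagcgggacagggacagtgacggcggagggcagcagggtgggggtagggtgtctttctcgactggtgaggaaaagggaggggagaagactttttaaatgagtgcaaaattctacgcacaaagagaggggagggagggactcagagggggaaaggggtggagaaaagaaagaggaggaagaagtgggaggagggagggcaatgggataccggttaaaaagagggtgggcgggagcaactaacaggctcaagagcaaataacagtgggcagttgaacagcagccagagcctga
The motifs were GGTGTGA for T-box factors, TNAAGTG for Nkx2-5 and AGATAA for GATA factors. The Gja1 promoter held 1 match, TTATCT, which is the GATA motif read on the minus strand, at bases 116 to 121 of the printed sequence. The Gja5 promoter held none of the 3, which says only that these letters are not in this stretch. Of all 32851 promoters in the table, 11.2% held the GATA motif, 11.5% the Nkx2-5 motif and 3.98% the T-box motif. No promoter of Gjc1 is shown.

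**Figure D1:**
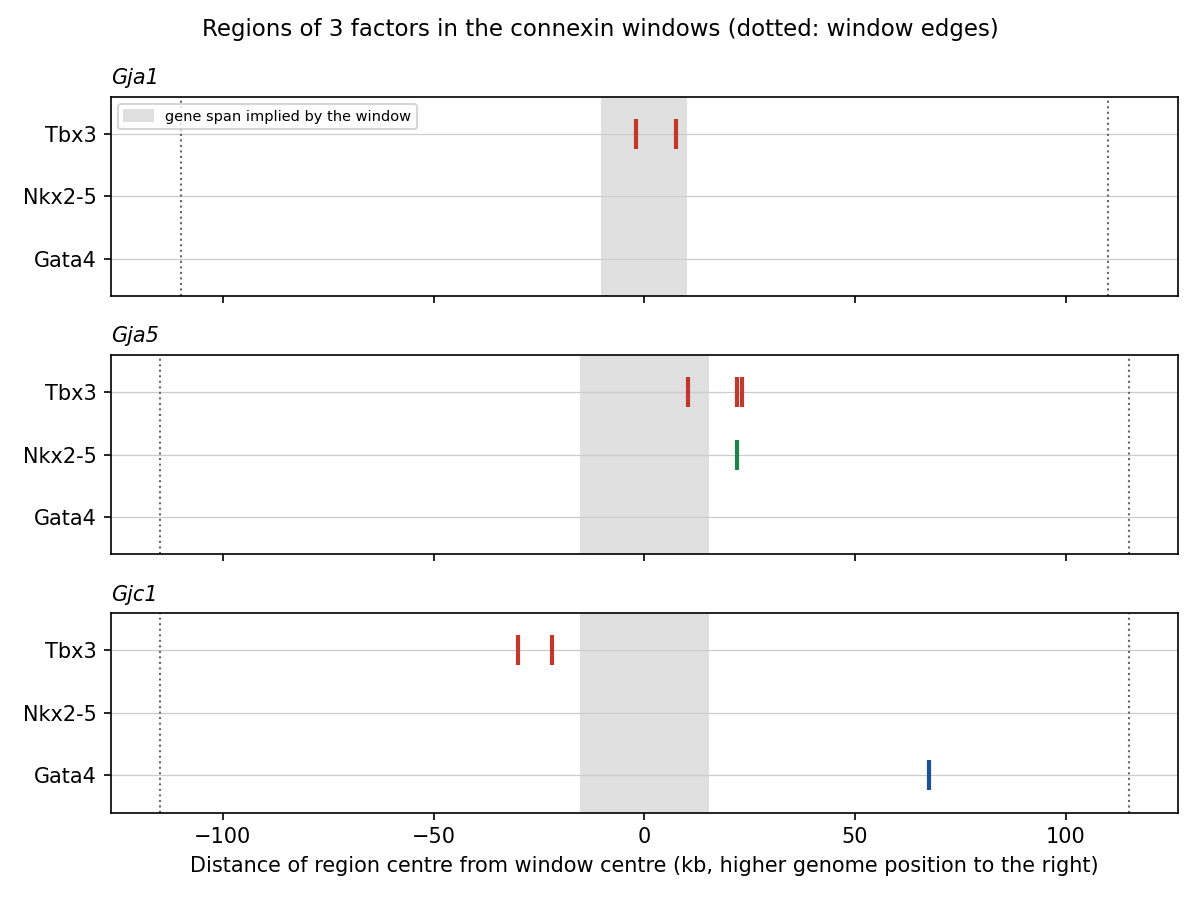
Centres of all 9 regions in the 3 windows, in kb from the window centre, with 1 row per factor. Grey marks the gene span that the window implies and dotted lines the window edges. Tbx3 ticks stand in all 3 windows, the Nkx2-5 tick lies beneath a Tbx3 tick at Gja5, and the Gata4 tick at Gjc1 lies apart.

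In these windows Tbx3, whose list is the longest with 13242 regions against 6705 for Nkx2-5 and 1756 for Gata4, was the factor with regions at all 3 connexin genes. It had 2 regions in the Gja1 window, 3 in the Gja5 window and 2 in the Gjc1 window. With the wider 50% of each list, or the 1756 widest regions of each, Tbx3 had 0 at Gjc1, and with a margin of 200 kb Nkx2-5 too had regions at all 3 genes. Nkx2-5 had its region at Gja5 and Gata4 its region at Gjc1, and each was without a region in the other windows. Combined over 0.68 Mb, the windows held 10.3 Tbx3 regions per Mb, against 5.36 per Mb over the autosomes. For Nkx2-5 the values were 1.47 per Mb in the windows and 2.69 per Mb over the autosomes, and for Gata4 they were 1.47 per Mb in the windows and 0.708 per Mb over the autosomes. The Tbx3 density in the windows rests on 7 regions, and the Nkx2-5 and Gata4 densities there rest on a single region each. Autosome length was taken from position 0 to the last region on each chromosome.

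To set the counts against the genome, the autosomes were divided end to end into tiles as wide as each window. At least 2 Tbx3 regions, the number at Gja1, were present in 24.4% of the 11201 tiles of 220 kb. At least 3, the number at Gja5, were present in 17.7% of the 10714 tiles of 230 kb, and at least 2, the number at Gjc1, in 25% of them. About 1 tile in 6 to 1 in 4 thus held as many Tbx3 regions as a connexin window, so none of these counts was rare. For presence alone, 7042 of the 11201 tiles of 220 kb and 6671 of the 10714 tiles of 230 kb held 0 Tbx3 regions, and the rest at least 1. The shares of Nkx2-5 and Gata4 that follow are for at least 1 region and are not on the scale of the Tbx3 shares above. An Nkx2-5 region, as at Gja5, was present in 30.4% of tiles of 230 kb, and a Gata4 region, as at Gjc1, in 12.1%. At Gja1, which had neither, the shares over tiles of 220 kb were 29.7% with an Nkx2-5 region and 11.6% with a Gata4 region. The windows were chosen to hold genes and the tiles were not, and the part this plays was not tested.

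With the margin of about 100 kb, each gene had its own combination of factors. At Gja1 there was Tbx3 without Nkx2-5 or Gata4, a state of 12.2% of tiles of 220 kb. Gja5 had Tbx3 and Nkx2-5 without Gata4, as did 16.4% of tiles of 230 kb. Gjc1 had Tbx3 and Gata4 without Nkx2-5, as did 170 of 10714 tiles, or 1.59%. Among these 3 combinations the one at Gjc1 had the smallest share of tiles. The combinations depended on the settings. With a margin of 50 kb Gja1 and Gjc1 both had Tbx3 alone, and with 200 kb Gja1 and Gja5 both had Tbx3 and Nkx2-5 while Gjc1 had all 3 factors. Tbx3 was lost from the Gjc1 combination in both shortened lists. Regions of all 3 factors were present in 7.77% of tiles of 230 kb and in no connexin window. No region of any list was present in 54.5% of these tiles.

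**Figure D2:**
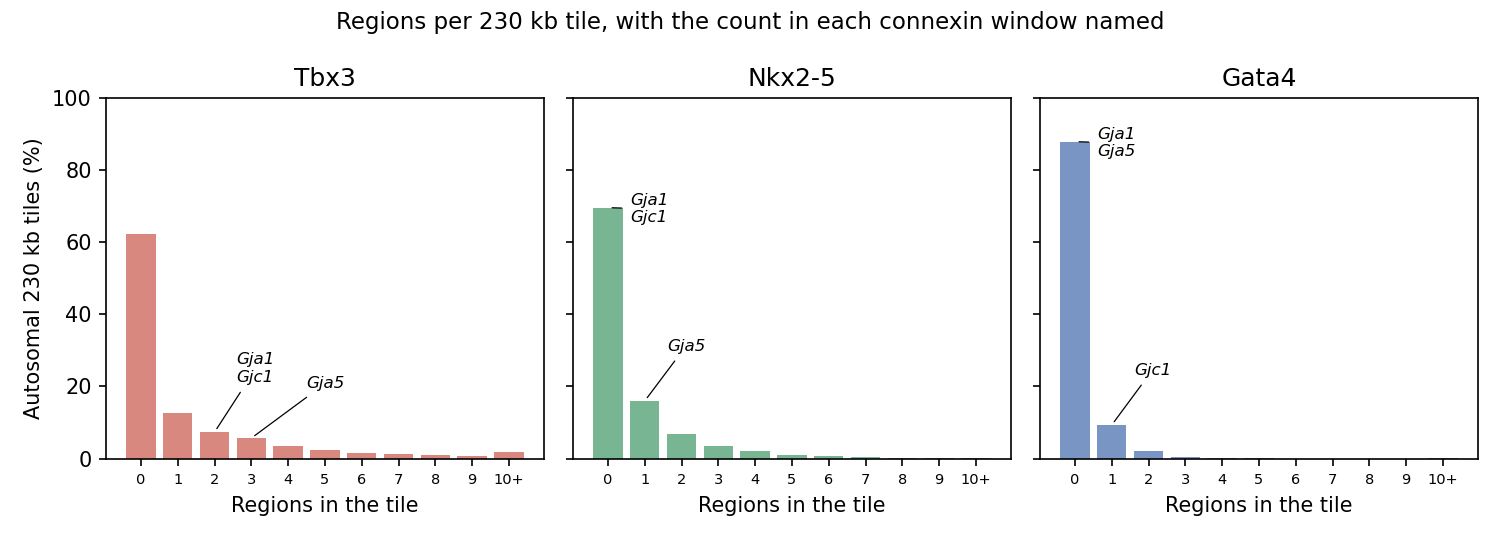
Share of autosomal tiles of 230 kb (vertical axis, %) by the number of Tbx3, Nkx2-5 or Gata4 regions they hold (horizontal axis), with the connexin genes named at their own counts. The Gja1 window is 220 kb wide and is set on the same axis. All 3 genes stand at 2 or 3 Tbx3 regions, to the right of the tallest bar at 0, Gja1 and Gjc1 stand at 0 for Nkx2-5, and Gja1 and Gja5 stand at 0 for Gata4.

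Gja5 was the locus with a place shared by 2 factors. The Nkx2-5 region at chromosome 3 (mm9), 96866745 to 96867156, was 412 bp wide and contained the whole of a Tbx3 region of 246 bp at 96866769 to 96867014. The Nkx2-5 region reached 24 bp beyond the Tbx3 region on the lower side and 142 bp beyond it on the higher side. The Tbx3 region covered 59.7% of it, and the centres were 59 bp apart. Over all 2445 overlapping pairs of Nkx2-5 and Tbx3 regions in the genome, the Tbx3 region lay wholly inside the Nkx2-5 region in 17.8%, and the centres were a median of 38.5 bp apart (interquartile range 16.5 to 73 bp). The distance at Gja5 was inside that range, with 66.3% of pairs closer.

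A further Tbx3 region stood close to this site, at 96868098 to 96868243, with a width of 146 bp. It began 0.941 kb beyond the end of the Nkx2-5 region and 1.08 kb beyond the Tbx3 region inside it. The last Tbx3 region at Gja5, of 289 bp at 96855233 to 96855521, was the widest Tbx3 region of the 3 windows. It lay 11.2 kb below the shared site, with no Nkx2-5 or Gata4 region between. All 4 Gja5 regions were therefore within a stretch from 96855233 to 96868243. The window implies a gene span of about 96.83 to 96.86 Mb, so the 289 bp region fell inside it and the other 3 lay 6.74 to 8.10 kb above its end. This span is rounded to 10 kb and is not an annotation of the gene, so these regions cannot be placed in an exon, an intron or beyond the gene. In the GRCm38.p6 gene table the next protein-coding gene on the higher side is Acp6. Unlike for Gja1 and Gjc1, neighbours on the lower side of Gja5 were not listed.

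**Figure D3:**
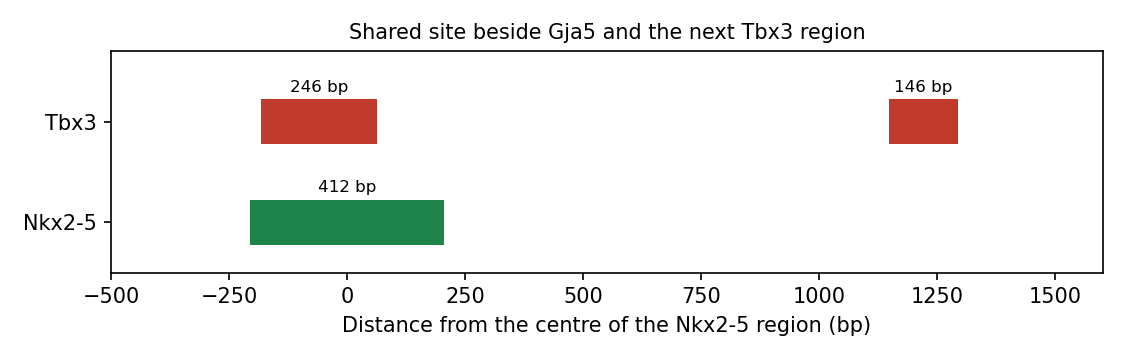
Extent of the Nkx2-5 region and the 2 nearest Tbx3 regions beside Gja5, in bp from the centre of the Nkx2-5 region, 1 row per factor. The Tbx3 bar of 246 bp lies wholly within the Nkx2-5 bar of 412 bp, and the Tbx3 bar of 146 bp stands 0.941 kb to its right.

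Gja1 had Tbx3 regions alone, and both lay inside the gene span that the window implies, about 56.09 to 56.11 Mb on chromosome 10 (mm9). One, at 56097919 to 56098019, was 101 bp wide, and the other, at 56107359 to 56107612, was 254 bp wide. They were 9.34 kb apart. No Nkx2-5 region came closer than 149.3 kb to either, and no Gata4 region closer than 593.2 kb. The nearest protein-coding neighbours of Gja1 in the GRCm38.p6 table are Msl3l2 on the lower side and Hsf2 on the higher side.

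Gjc1 had 2 Tbx3 regions on the lower side of its implied span of about 102.66 to 102.69 Mb on chromosome 11 (mm9) and a Gata4 region on the higher side. The Tbx3 regions were 131 bp wide at 102644923 to 102645053 and 107 bp wide at 102653037 to 102653143. They stood 14.9 and 6.86 kb below the span and 7.98 kb from each other. The Gata4 region, of 158 bp at 102742441 to 102742598, stood 52.4 kb above the span and 89.3 kb from the nearer Tbx3 region. Tbx3 and Gata4 thus shared the Gjc1 window but no place in it. In the GRCm38.p6 table Adam11 is next on the lower side. On the higher side Higd1b, Eftud2, Ccdc103, Fam187a and Gfap follow in that order. Distances to these genes were not measured. The regions are assigned to the window and not to Gjc1, and the same holds for the other windows.

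Shared positions were counted over the windows as a whole. An overlap with Nkx2-5 was present at 1 of the 7 Tbx3 regions, or 14.3% (exact Clopper-Pearson 95% interval 0.361 to 57.9%, counting error only), against 18.3% of the whole Tbx3 list. None of the 7 overlapped a Gata4 region (exact interval 0 to 41.0%), against 2.92% of the whole list. The intervals treat the 7 regions as independent, but these lie in 3 windows of 1 library, some of them close together. The shares in the windows and in the whole lists are therefore set side by side with no test. The single Nkx2-5 region overlapped Tbx3, as did 35.8% of all Nkx2-5 regions, and not Gata4, which 8.9% of them overlapped. The single Gata4 region overlapped neither, against 21.3% of all Gata4 regions that overlapped Tbx3 and 33.4% that overlapped Nkx2-5.

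The 3 genes also differed in how wide their regions were. At Gja5 the Nkx2-5 region ranked number 45 by width among 6705, wider than 99.3% of its list, whose median was 142 bp. The Tbx3 regions at Gja5 were 289, 246 and 146 bp wide, against a list median of 147 bp, and exceeded 93.9%, 88.6% and 48.8% of the list. At Gja1 they were 254 and 101 bp wide, wider than 89.9% and 1.35% of the list. The second is 1 bp above the narrowest region of the list, 100 bp. At Gjc1 both Tbx3 regions were narrower than the median, at 131 and 107 bp, and exceeded 35.7% and 8.84% of the list. The Gata4 region, of 158 bp, was near the median of its list, 149 bp. Gja5 thus held wide regions of both factors beside a Tbx3 region near the median, and Gja1 held 1 wide and 1 narrow Tbx3 region. At Gjc1 both Tbx3 regions were below the median, the 131 bp region between the quartiles of its list, 120 and 194 bp. What width reflects in these lists was not tested.

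**Figure D4:**
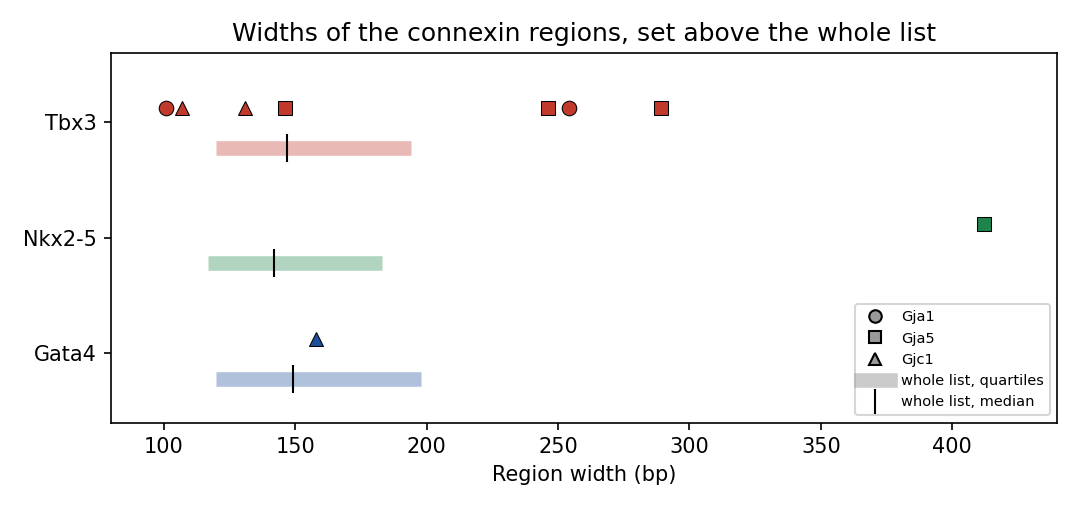
Width in bp of each region in the windows (symbols by gene) above the quartiles (bars) and median (line) of the whole list, 1 row per factor. The Nkx2-5 region at Gja5, at 412 bp, stands to the right of its list's quartile bar, and both Gjc1 Tbx3 regions, at 131 and 107 bp, lie left of their list's median.

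Regions just outside the windows show what the edges set. Beyond the Gja5 window the first was a Tbx3 region of 142 bp at 96965018 to 96965159, 5.02 kb past the higher edge, followed by an Nkx2-5 region 58.5 kb past it. The first region outside the Gja1 window was an Nkx2-5 region of 125 bp at 55948494 to 55948618, 41.4 kb below the lower edge. Around the Gjc1 window the nearest were a Tbx3 region 49.75 kb past the higher edge and, below the lower edge, an Nkx2-5 region at 102505309 to 102505425 and a Tbx3 region at 102505194 to 102505331, which overlap each other at 54.6 and 54.7 kb. A Gata4 region at 102859976 to 102860167 followed 69.98 kb past the higher edge. Of the members, the one nearest to a window edge was the Gata4 region at Gjc1, 47.4 kb inside it.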

How the data were processed

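Region lists of Tbx3, Nkx2-5 and Gata4 from ChIP-seq of adult mouse hearts were grouped by target from the labels, with 1 library each and kits for Illumina sequencing per the labels' protocols. The files deposited by the authors hold a chromosome, start and end in bp and no other value. Positions are in mm9, which the submitters' processing notes name. How reads were aligned and regions called, with which threshold, depth and control, is not given in the sources used here. Starts were read as counted from 0 and are printed counted from 1. A site was called shared where regions of different factors overlapped by at least 1 bp. Tiles ran from position 0 to the last region on each of 19 autosomes, and a region counted in each tile it overlapped. The overlapping pairs were tested on simulated data against direct counting. For tiles only the total over all tiles was tested in this way, not the count in each tile. Gene names, neighbours and promoters came from RefSeq tables of GRCm38.p6, in which 3 of 3 genes matched by symbol and 2 had a promoter. Computation used Python 3.11.15, pandas 2.3.3 and scipy 1.17.1. The planned protein comparison was not run. All shared sites and all regions are named, since no window held more than 3 regions of a factor. Members and lists were chosen with earlier results of these data known.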

Additional observations from a re-analysis of the deposited data

How the results depend on the processing

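Of 69 alternative values, 49 stayed equal to the count reported, within 1.5 times of it or, for tile shares, within its exact 95% interval. These include counts of 0 that stayed 0. Some of those could not change, since a smaller margin or a shortened list cannot add regions to an empty window. The tally is therefore no measure of stability. The shared site at Gja5 was also counted as 1 site under 50% overlap of the shorter region and with centres within 500 bp. The same count held with gaps of up to 1 kb and in the wider 50% of each list. These outcomes followed from the stated positions, with centres 59 bp apart and both widths above their medians, so they add no support. With gaps of up to 1 kb the site also took in the 146 bp Tbx3 region, 0.941 kb from the Nkx2-5 region. Tbx3 numbered 1 at Gja1 and 0 at Gjc1 both in the wider 50% of each list and at equal list sizes (the 1756 widest regions). At Gja5 it numbered 2 in both shortened lists and 4 with a margin of 200 kb, against 3 as reported, changes that fall within the 1.5 times rule. A margin of 50 kb left 0 Gata4 regions at Gjc1. A margin of 200 kb gave 1 Nkx2-5 region at Gja1, 2 at Gja5 and 3 at Gjc1, with 6 Tbx3 and 2 Gata4 regions at Gjc1, and, in a count added after the data were seen, 1 shared site at Gjc1. The combination of Tbx3 and Gata4 without Nkx2-5 at Gjc1 was thus absent under both other margins and in both shortened lists. Tiles on all chromosomes gave lower shares: at Gja1 22.9% for Tbx3, 28.1% for Nkx2-5 and 10.9% for Gata4, at Gja5 16.6%, 28.8% and 11.4%, and at Gjc1 23.4%, 28.8% and 11.4%. No paired analysis was possible because each factor has 1 library. Leaving out a replicate was not possible for the same reason, and depth is unknown.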

Other observations

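The Tbx3 pair at Gja1 was far from other Tbx3 regions. The nearest other Tbx3 regions ended at 53316716 below it and began at 57206030 above it (mm9), so that the pair was the whole Tbx3 content of 3.89 Mb. Of 13134 sets of 2 consecutive autosomal Tbx3 regions, 2.36% had neighbours at least that far apart, and the median was 0.174 Mb. The corresponding stretch around the first 2 Tbx3 regions at Gja5 was 0.337 Mb and at Gjc1 0.334 Mb, lengths that 31.6% and 31.7% of such sets reached. At Gja5 the stretch ended above at the remaining Tbx3 region of the same window, at 96868098. At Gjc1, as at Gja1, both ends lay outside the window. This measure was chosen after the positions were seen, so it is given as a description with no test.

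Within 200 kb of the implied Gjc1 span, regions of all 3 factors were present although no Nkx2-5 region fell in the window. On the higher side an Nkx2-5 region of 136 bp at 102858878 to 102859013 was followed by the Gata4 region of 192 bp at 102859976, without overlap.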
